A study of Mus musculus with 8 samples.

Results

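Oligodendrocytes are the myelinating cells of the primary visual cortex (V1), and 5418 nuclei were assigned to them by the deposited cell type column out of 102330 nuclei profiled by single-nucleus RNA-seq. All mice were GR fl/fl, that is, both alleles of the glucocorticoid receptor gene Nr3c1 carried loxP sites, and all were sampled at postnatal day 21 (P21). Each mouse received at birth an AAV2/5 vector under the astrocyte promoter GfaABC1D. GR-KO mice received Cre with EGFP and GR-Con mice an inactive ΔCre with EGFP, so the control animals carried the virus and EGFP as well. Mice were normally reared (NR) or dark-reared (DR, kept in darkness until collection), which gave 4 groups of 2 libraries, each library from 1 mouse, with 1 male and 1 female library per group. The promoter directs the deletion to astrocytes, and the methods of the study state that GFP-negative nuclei were sorted, so oligodendrocytes were not the cells the vector was designed to act in. Library names in the deposited cell table gave group and sex but no replicate number, and libraries are therefore named by group and sex. Rearing is compared over the 4 NR and 4 DR libraries as well as within each genotype.

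Oligodendrocytes arise from oligodendrocyte precursor cells (OPCs), which divide and carry the receptor Pdgfra and the proteoglycan Cspg4. A precursor that leaves the cell cycle passes through a committed stage marked by the receptor Gpr17, the sialidase Neu4 and the ligand Bmp4, then through a newly formed stage marked by Enpp6, Itpr2, Bcas1, the kinase Fyn and the transcription factor Tcf7l2. Mature cells switch on myelin proteins (Mbp, Mobp, Mog) and late genes such as Opalin, Hapln2 and Aspa. Myelin is rich in cholesterol, which oligodendrocytes largely synthesise themselves, and in rodents myelination of the visual pathway is in progress during the weeks after eye opening.

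Between 492 and 814 oligodendrocyte nuclei were recovered per library, with 4954095 to 9089734 UMIs (unique molecular identifiers, that is, counted transcripts) per library and a median of 7040 to 15571 UMIs per nucleus. The 3 libraries with the highest medians were NR GR-KO female (15571), NR GR-KO male (11134) and DR GR-Con female (10220), so depth was not balanced over the groups. The cell type label was checked against its markers. Mbp, Mog, Mobp, Mag and Cldn11 were all at their highest in these nuclei among the non-neuronal cell types, pooled excitatory neurons and pooled inhibitory neurons. Mbp stood at 9155 counts per 1000000 UMIs (CPM) in oligodendrocytes as a mean of the 8 libraries and at 73.8 CPM in OPCs. The OPC genes Pdgfra and Cspg4 stood at 7.73 and 9.44 CPM in oligodendrocytes, against 598 and 246 CPM in OPCs. Astrocyte, microglial and vascular marker sums were at most 190 CPM in any library. Only 3 barcode sequences occurred in oligodendrocytes of more than 1 library. Transcripts of the vectors were close to absent. Cre had 4 UMIs in 2693 oligodendrocyte nuclei of GR-KO mice and 0 in 2725 of GR-Con mice (which allows a share of nuclei with a UMI of up to 0.110%), delCre had 3 and 1, and EGFP 2 and 1. Since delCre was counted in GR-KO mice, which did not receive it, counts of this size do not tell which nuclei carried a vector. Nr3c1 lay between 138 and 170 CPM in all 8 libraries, and its log2 fold change for GR-KO over GR-Con was -0.07 ± 0.10 (SE, edgeR likelihood ratio test, adjusted p = 1.00). The counts cover the gene as a whole, read from its 3′ end, and so do not test the loxP-flanked exon.

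Oligodendrocytes made up 6.06% and 4.67% of all nuclei in NR GR-Con, 6.23% and 5.78% in NR GR-KO, 5.37% and 3.56% in DR GR-Con, and 5.88% and 5.18% in DR GR-KO, male before female. The groups overlapped, and neither genotype (5.77% against 4.92%, exact permutation test, two-sided, p = 0.229) nor rearing (5.00% in DR against 5.69% in NR, exact permutation p = 0.343) gave a difference beyond the spread between libraries. Microglia numbered 2, 4 and 4 nuclei in NR GR-Con male, NR GR-KO male and DR GR-Con female and 573 to 948 in the other 5 libraries, which enters both denominators. With non-neuronal nuclei as the denominator the log2 ratio for genotype turned from 0.235 to -0.0187. A share of nuclei is relative to every other cell type counted, so more oligodendrocytes and fewer of the rest cannot be told apart.

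The oligodendrocyte nuclei spanned 2 separate ranges of maturation. An early-stage score was computed for each nucleus as the UMIs of 15 genes of the committed and newly formed stages per 10,000 UMIs. Of the 5418 nuclei, 1541 (28.4%) had a score of 60 or more, with a median of 177, and 3877 lay below, with a median of 18.6. The range between them was thinly filled, with 170 nuclei (3.14%) scoring between 45 and 75. The division is a range of a score and not a cell type of its own, and the cut was placed after the distribution had been seen. Nuclei with a high score were not the deeper ones. In every library their median UMI number was lower than that of the other oligodendrocytes, with 6545 to 15019 against 7238 to 15672.

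The high-scoring nuclei held transcripts of young oligodendrocytes together with Mbp at a high level, while other myelin transcripts were lower there. The levels below are means over the 8 libraries and carry no test, because the score genes were used to divide the nuclei. Among score genes, Bmp4 was at 166 CPM in high-scoring and 1.22 CPM in low-scoring nuclei, Neu4 at 164 and 2.67, Tcf7l2 at 2027 and 73.4, Itpr2 at 2487 and 48.3, and Fyn at 3220 and 204. Mbp was at 6552 CPM in high-scoring and 10178 CPM in low-scoring nuclei. Mobp was at 971 against 3870 CPM, and Mog, a glycoprotein of the outer myelin surface, at 144 against 1470 CPM, so the myelin genes differed between the ranges to unequal degrees. The late genes differed far more. Opalin, a transmembrane protein of mature oligodendrocytes, was at 14.2 CPM against 407 CPM, Aspa, which cleaves N-acetylaspartate to acetate, at 3.38 against 590 CPM, and Hapln2, a link protein of the matrix at nodes of Ranvier, at 3.50 against 106 CPM.

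Several genes outside the score followed it. Tnr, which encodes the matrix protein tenascin-R, was at 8650 CPM in high-scoring nuclei, 103 CPM in low-scoring nuclei and 5687 CPM in OPCs. The transcription factor Sox6, which restrains oligodendrocyte maturation, was at 2004, 41.9 and 2632 CPM in the same order. The defining OPC genes were not shared in this way, since Pdgfra was at 12.5 CPM and Cspg4 at 22.7 CPM in high-scoring nuclei, far under their levels in OPCs. Enpp6, at 732 CPM in high-scoring nuclei, was at 1.24 CPM in OPCs, and Bmp4 was at 13.1 CPM there.

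**Figure D1:**
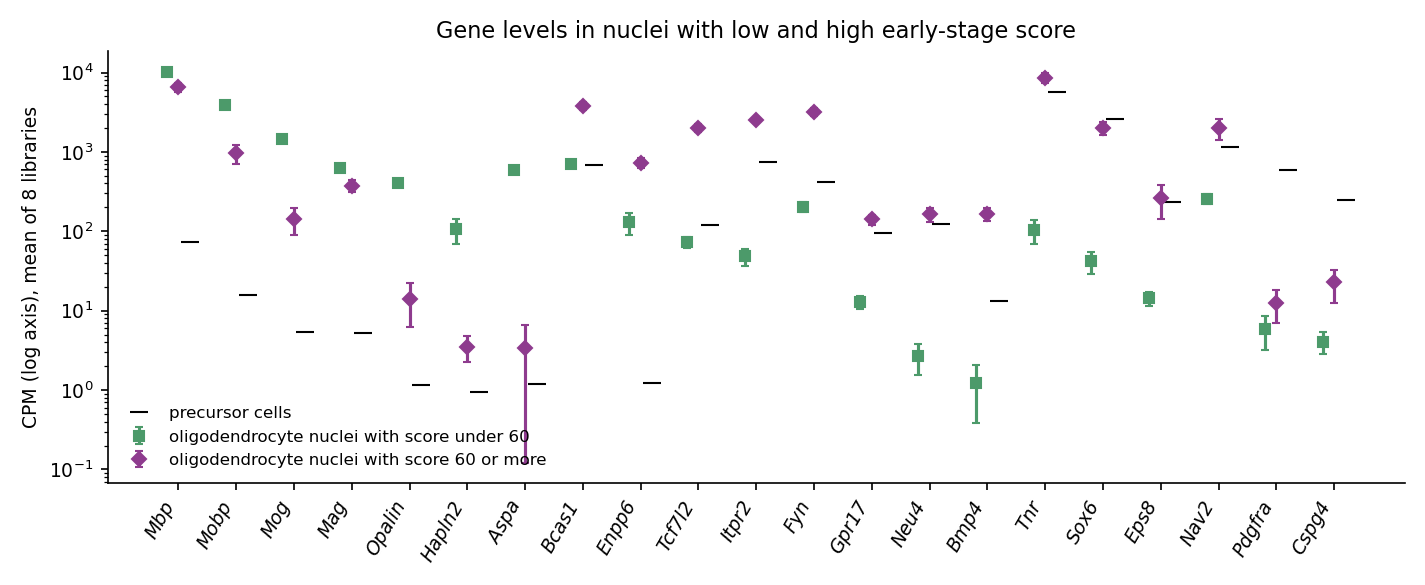
Levels of 21 genes (CPM, log axis) in oligodendrocyte nuclei with an early-stage score under 60 (squares) or of 60 or more (diamonds), as mean and SD of 8 libraries, and in precursor cells (dashes, mean only). High-scoring nuclei kept Mbp at 6552 CPM, had Opalin, Hapln2 and Aspa at 14.2 CPM or less, and had Pdgfra and Cspg4 far under their levels in precursor cells.

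High-scoring nuclei were more frequent among the oligodendrocytes of dark-reared mice. Their share was 22.6% and 21.5% in NR GR-Con, 20.0% and 28.4% in NR GR-KO, 29.9% and 35.6% in DR GR-Con, and 36.7% and 35.7% in DR GR-KO, male before female. The highest NR library (28.4%, Wilson 95% interval 24.8% to 32.3%) lay under the lowest DR library (29.9%, 26.8% to 33.1%), so the groups did not overlap although these 2 intervals did. These intervals cover counting error only. The mean was 34.4% ± 3.10 (SD, n = 4) in DR and 23.1% ± 3.65 (SD, n = 4) in NR, a difference of 11.3 percentage points (exact permutation test, two-sided, p = 0.0286, the smallest p that 4 against 4 libraries can give). The score and its cut were chosen after the data had been seen, so this was not a planned test.

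The difference was similar at other cuts. It was 11.4 points with the cut at 40 and 10.9 points with the cut at 80 (exact permutation p = 0.0286 for each). These repeats, and the thinned one below, use the same libraries and score, so their p-values add no independent support. Median depth was lower in DR (8139 UMIs per nucleus) than in NR (10777), with overlapping libraries (exact permutation p = 0.200). With every nucleus thinned to 3000 UMIs and 55 shallower nuclei left out, the difference was 10.9 points (exact permutation p = 0.0286). Leaving out 1 library at a time gave 10.3 to 13.1 points. The exact permutation p was 0.0571 without NR GR-KO male, DR GR-Con female, DR GR-KO male or DR GR-KO female, and 0.0286 without each of the others.

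As a share of all nuclei of the library, high-scoring oligodendrocytes were at 1.72% in DR and 1.32% in NR (exact permutation p = 0.171), and low-scoring ones at 3.28% and 4.37% (exact permutation p = 0.0857). Neither passed, so the data do not say whether the shift lay in more early or in fewer mature nuclei, and a change of composition and a change of RNA content per cell cannot be told apart. Genotype gave no such difference, with 30.2% in GR-KO and 27.4% in GR-Con (exact permutation p = 0.686). Leaving out 1 library at a time moved that difference between 0.635 points (without DR GR-KO male) and 6.19 points (without NR GR-KO male).

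**Figure D2:**
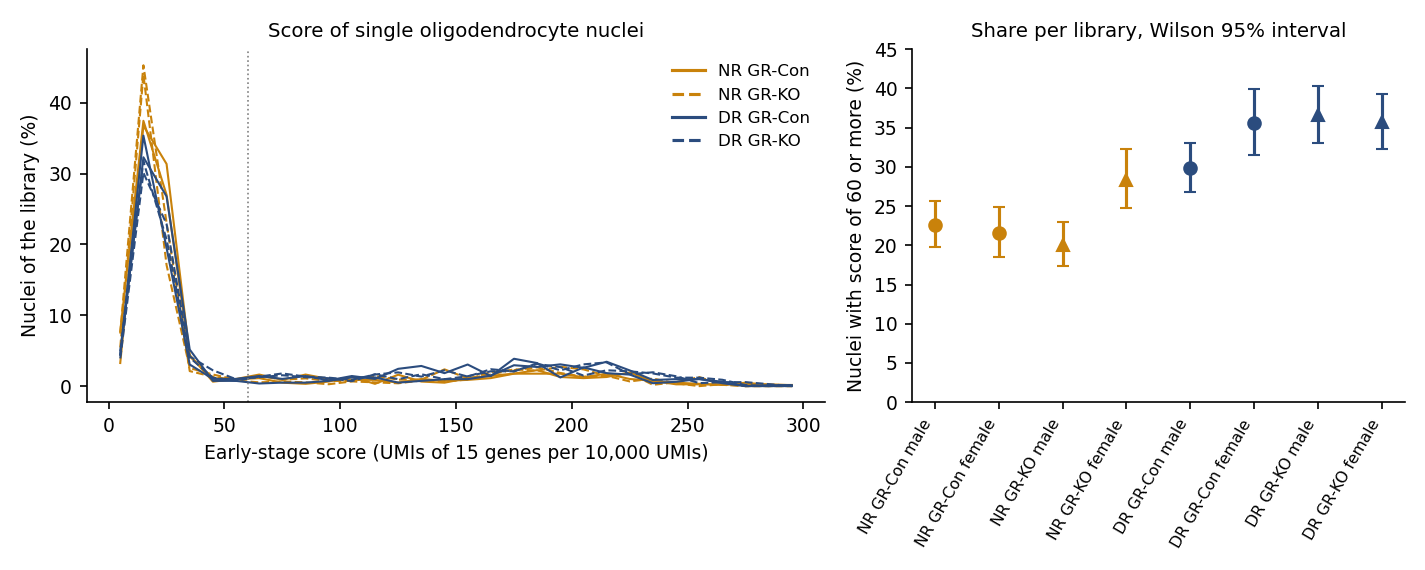
Left, distribution of the early-stage score over oligodendrocyte nuclei (percent of the nuclei of each library, 1 line per library, dotted line at 60). Right, percent of nuclei with a score of 60 or more in each library with its Wilson 95% interval. The 4 DR libraries lie between 29.9% and 36.7% and the 4 NR libraries between 20.0% and 28.4%.

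Counts summed over all oligodendrocyte nuclei of a library were then compared between DR and NR over both genotypes. The edgeR likelihood ratio test called 523 of 13341 genes at an adjusted p under 0.05, of which 326 were higher and 197 lower in DR (3.92% of the genes tested in either direction, 2.44% higher and 1.48% lower). The quasi-likelihood test, which allows for uncertainty in the dispersion, called 215 (1.61%, with 1.14% higher and 0.472% lower), while 350 passed in DESeq2. A total of 1236 genes (9.26%) had no overlap between the NR and the DR libraries, and this share is the background for each gene described below as not overlapping. The number of calls fell to 221 without NR GR-KO male, to 318 without DR GR-KO male and to 212 without DR GR-KO female. A total of 58 of the 326 genes called higher and 27 of the 197 called lower were enriched in neurons, against 1310 of the 13341 genes tested. Enriched in neurons means at least 4-fold higher in CPM in excitatory neurons than in oligodendrocytes.

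Of the 326 genes called higher in DR, 317 (97.2%) had a higher mean level in high-scoring than in low-scoring nuclei, against 61.9% of all genes tested. Of the 197 called lower, 105 (53.3%) did. The nuclei were therefore also compared within each range of the score, a division that removes most of the variation of the score genes by construction. In low-scoring nuclei 80 of 12210 genes passed, with 14 above and 66 below 0 for DR over NR (0.655%, 0.115% and 0.541% of the genes tested), and in high-scoring nuclei 138 of 10623, 65 higher and 73 lower (1.30%, 0.612% and 0.687%). The quasi-likelihood test called 0 genes in low-scoring nuclei, where 1043 had an unadjusted likelihood ratio p under 0.05, and 13 (0.122%) in high-scoring nuclei. Of the genes called higher over all nuclei, 279 could be tested in low-scoring nuclei and 11 (3.94%) were called there, with a median log2 fold change of 0.24 against 0.61 over all nuclei. In high-scoring nuclei 321 could be tested and 48 (14.95%) were called, with a median of 0.39 against 0.64 over all nuclei. Of the genes called lower, 189 could be tested in low-scoring nuclei and 55 (29.1%) were called, with a median of -0.64 against -0.63 over all nuclei, and in high-scoring nuclei 44 of 152 (28.9%) were called, with a median of -0.67. These genes had been chosen on the same libraries, so the counts describe and do not test them.

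Of the 15 genes of the early stages, 8 were called higher in DR and 0 lower, against 2.44% higher and 1.48% lower over all genes tested, and 2 of the 8 passed the quasi-likelihood test. The median log2 fold change was 0.40 against 0.00 over all genes tested. This list is the one that made up the score, so its counts and the share of high-scoring nuclei are the same observation in another form. Tcf7l2, a Wnt effector needed for oligodendrocyte differentiation, was at 392, 509, 521 and 587 CPM in the NR libraries and 654, 753, 716 and 732 CPM in the DR libraries, in the order GR-Con male, GR-Con female, GR-KO male, GR-KO female. The groups did not overlap, and the log2 fold change was 0.52 ± 0.13 (SE, edgeR adjusted p = 0.00358, quasi-likelihood adjusted p = 0.0321). Fyn, a kinase that relays axonal contact signals to local Mbp synthesis, was at 846, 773, 693 and 980 CPM in NR and 1195, 1193, 1281 and 1389 CPM in DR. All 4 DR libraries were above all NR libraries (log2 fold change 0.62 ± 0.13, adjusted p = 0.000279, quasi-likelihood adjusted p = 0.0190).

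The other 6 called genes did not pass the quasi-likelihood test. Bmp4, a ligand that restrains differentiation, was at 41.5, 29.3, 22.1 and 45.2 CPM in NR and 57.3 to 66.8 CPM in DR (log2 fold change 0.81 ± 0.20). Neu4 was at 40.5, 32.2, 24.0 and 47.0 CPM in NR and 55.8, 50.0, 58.1 and 73.7 CPM in DR (0.73 ± 0.20). The NR and DR libraries did not overlap for either gene, and NR GR-KO male had the lowest level of both. Gpr17 (0.53), Enpp6 (0.47), the homeodomain factor Nkx2-2 (0.45) and Itpr2 (0.40) made up the rest. Within the low-scoring nuclei 0 of 14 tested genes of the list were called and within the high-scoring nuclei 0 of 15, with medians of 0.07 and 0.03. The nuclei were divided on the sum of these genes, so small values within a range follow largely by construction. The sign turned for Nkx2-2 in low-scoring nuclei (-0.14) and for Itpr2 in high-scoring nuclei (-0.08).

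Of 15 tested genes of myelin proteins 0 were called higher and 1 lower (Opalin), beside 2.44% higher and 1.48% lower over all genes, 13 had a negative log2 fold change, and the median was -0.09. Mbp was at 9531, 10191, 9720 and 8934 CPM in NR and 8793, 8321, 8727 and 9026 CPM in DR, and the ranges overlapped (log2 fold change -0.13 ± 0.11, edgeR adjusted p = 0.681). Mobp (-0.03 ± 0.13), Mog (-0.30 ± 0.14) and Mag (-0.22 ± 0.13) did not pass.

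Among the late genes, Hapln2 and Opalin fell in DR. Hapln2 was at 117, 106, 93.2 and 107 CPM in NR and 62.9, 30.1, 60.4 and 59.7 CPM in DR. Every DR library was lower than every NR library, and DR GR-Con female was the lowest (log2 fold change -0.98 ± 0.21, edgeR adjusted p = 0.000390, quasi-likelihood adjusted p = 0.0366). The fall was also called in low-scoring nuclei, where the mean was 136 CPM in NR and 76.7 CPM in DR (-0.81 ± 0.21, adjusted p = 0.0281, quasi-likelihood adjusted p = 0.247). Opalin was at 348, 373, 310 and 308 CPM in NR and 317, 273, 227 and 244 CPM in DR (-0.33 ± 0.11, adjusted p = 0.0440, quasi-likelihood adjusted p = 0.0611). In low-scoring nuclei Opalin was at 437, 469, 381 and 428 CPM in NR and 434, 405, 340 and 359 CPM in DR, so the libraries overlapped there. Of 17 mature-stage genes tested 2 were lower (Hapln2 and Opalin) and 1 was higher, namely S100b (1.48% and 2.44% over all genes), and the median was -0.19. Despite its list, S100b was higher in high-scoring nuclei (56.5 to 93.4 CPM per library) than in low-scoring nuclei (10.9 to 19.8 CPM).

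Among 17 transcription factors of the lineage, 4 were called higher and 1 lower (2.44% and 1.48% over all genes), and the median was -0.06. The SoxD factors Sox6 (0.85 ± 0.19) and Sox5 (0.67 ± 0.20), which hold back maturation, rose together with Nkx2-2 and Tcf7l2. Sox6 was at 487, 388, 278 and 545 CPM in NR and 658, 807, 767 and 823 CPM in DR with no overlap. Id2, an inhibitor of basic helix-loop-helix factors, fell by 0.60 on the log2 scale from a low level of 8.44 to 12.9 CPM in NR.

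**Figure D3:**
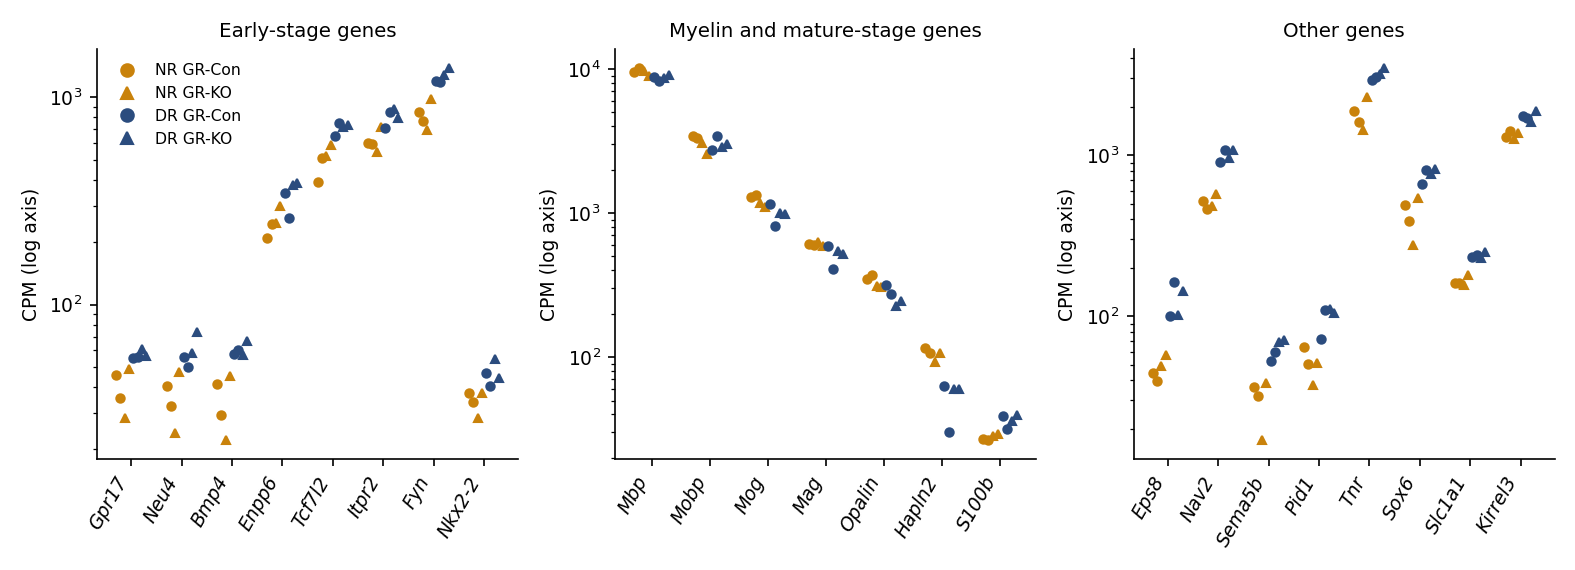
CPM (log axis) of early-stage genes, myelin and mature-stage genes and other genes in each library, 1 symbol per library, colours for rearing and shapes for genotype. DR symbols lie above NR symbols without overlap for Eps8 and Nav2 and below them for Hapln2, while Mbp, Mobp and Mag overlap.

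Among genes called at an average log2 CPM of at least 5, the largest rise was that of Eps8, an adaptor that regulates actin and growth factor signalling (chr6:137477245-137654876, minus strand, GRCm38). It was at 44.3, 39.7, 49.1 and 57.3 CPM in NR and 99.9, 164, 102 and 143 CPM in DR. The lowest DR library was above the highest NR library (log2 fold change 1.43 ± 0.18, edgeR adjusted p = 3.36e-12, quasi-likelihood adjusted p = 0.00437). Eps8 was mainly a transcript of high-scoring nuclei, at 264 CPM against 14.3 CPM in low-scoring nuclei. Within the high-scoring nuclei it was still higher in DR, with a mean of 362 ± 89.0 CPM against 166 ± 19.0 CPM (SD, n = 4), a log2 fold change of 1.11 ± 0.18 (adjusted p = 2.76e-06, quasi-likelihood adjusted p = 0.0385). In low-scoring nuclei it did not pass (0.35 ± 0.19, adjusted p = 0.634).

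Nav2, a neuron navigator family protein linked to the cytoskeleton (chr7:48908716-49610090, plus strand), was at 518, 463, 484 and 570 CPM in NR and 910, 1070, 964 and 1074 CPM in DR. All DR libraries were above all NR libraries (0.99 ± 0.11, adjusted p = 2.00e-14, quasi-likelihood adjusted p = 0.00167). It was also called within high-scoring nuclei (0.78 ± 0.12, adjusted p = 4.65e-07, quasi-likelihood adjusted p = 0.0131). The rule for named genes also picked Shisa9 (1.08), an AMPA receptor auxiliary protein, Sema5b (1.04), a semaphorin, Pid1 (0.97) and the matrix protein Ltbp1 (0.97) as higher in DR. Of these, Sema5b and Pid1 passed the likelihood ratio test within high-scoring nuclei as well, and neither passed the quasi-likelihood test there. Slc1a1, a glutamate and cysteine transporter, was at 156 to 179 CPM in NR and 231 to 250 CPM in DR (0.54 ± 0.10, quasi-likelihood adjusted p = 0.00677), and did not pass within either range of the score. Kirrel3, an adhesion molecule of the immunoglobulin family, was at 1260 to 1411 CPM in NR and 1611 to 1891 CPM in DR (0.39 ± 0.11, adjusted p = 0.0225). In low-scoring nuclei it was called higher in DR (0.60 ± 0.16, adjusted p = 0.0376), and in high-scoring nuclei its log2 fold change was -0.15.

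Markers of OPCs moved with rearing beside these genes. The summed level of 6 OPC marker genes was 1707 to 2783 CPM in NR and 3489 to 4219 CPM in DR, and most of it was Tnr. Tnr (0.81 ± 0.15) and Lhfpl3 (0.85 ± 0.21) were called. Pdgfra (-0.09 ± 0.33, adjusted p = 0.959) and Cspg4 (0.82 ± 0.32, adjusted p = 0.156) did not pass. For C1ql1 and Ptprz1 only levels are given. C1ql1, at 123 CPM in OPCs, was at 10.2 to 13.1 CPM in DR, above every NR library. Ptprz1 was at 81.6 to 156 CPM in NR and 153 to 211 CPM in DR, so its libraries overlapped. None of the 6 was at 0. Pdgfra ranged from 5.73 to 13.2 CPM in NR and from 3.62 to 10.7 CPM in DR, close to 1% of its level of 598 CPM in OPCs.

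The same comparison was fitted apart in OPCs. Eps8 (-0.08 ± 0.09, edgeR adjusted p = 0.756), Nav2 (0.07 ± 0.08, adjusted p = 0.765) and Tnr (0.01 ± 0.11, adjusted p = 0.976) did not pass in OPCs, where Eps8 was at 233 CPM and Nav2 at 1162 CPM. The difference between the rearing effects of the 2 cell types was tested with the library as a block and was 1.44 ± 0.16 for Eps8, 0.88 ± 0.12 for Nav2 and 0.78 ± 0.14 for Tnr, each passing the quasi-likelihood test. Each of these genes was higher in high-scoring than in low-scoring nuclei in every library. The part of the share of such nuclei in this difference was not tested. Over all genes this difference was called for 225 of 13587 (1.66%), 170 of them higher in oligodendrocytes (1.25%), and for 109 (0.802%) with quasi-likelihood. Rearing within OPCs was called for 253 of 11618 genes (2.18%). By contrast, Nrgn (neurogranin) fell in both. In oligodendrocytes it was at 79.2, 47.5, 88.1 and 82.8 CPM in NR and 27.6, 35.3, 40.0 and 51.6 CPM in DR (-0.95 ± 0.16, adjusted p = 3.50e-06), and in OPCs its log2 fold change was -0.85 ± 0.14. Atp6v0c, a subunit of the vacuolar proton pump, fell by 0.92 on the log2 scale in oligodendrocytes and by 0.72 in OPCs, and the activity-regulated factor Egr1 fell by 0.99 and by 1.08. Gapdh and Ubb, which encode a glycolytic enzyme and ubiquitin, and Calm2, a calmodulin gene, were picked by the rule within GR-KO. Over both genotypes they fell by 0.84, 0.68 and 0.66 in oligodendrocytes and by 0.83, 0.78 and 0.46 in OPCs. For Nrgn, Atp6v0c and Egr1 the difference between the cell types did not pass (adjusted p = 0.836, 0.625 and 0.978), and neither did it for Gapdh, Ubb and Calm2 (adjusted p = 0.972, 0.959 and 0.407).

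Nrgn, Atp6v0c, Tpt1, Cox4i1 and Olfm1 were also called lower in low-scoring nuclei, with log2 fold changes of -0.94, -0.96, -0.71, -0.72 and -0.69. Gapdh, Ubb and Calm2 were called lower there too (-0.85, -0.62 and -0.71). Tpt1, Cox4i1 and Gapdh have processed copies elsewhere in the genome, and how reads were divided among such copies is uncertain. The excitatory neuron marker sum in oligodendrocytes was 164 to 313 CPM in NR and 129 to 197 CPM in DR, and its part in the fall of Nrgn and Olfm1 was not tested. Both are abundant in neurons, and Olfm1 but not Nrgn met the 4-fold rule for neuron-enriched genes.

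Genes of cholesterol and myelin lipid synthesis fell in DR or had values below 0 that did not pass the test. Of 30 genes 6 were called lower and 0 higher (1.48% and 2.44% over all genes), all 30 had a negative log2 fold change, and the median was -0.27 against 0.00 over all genes. Hmgcs1, which makes the precursor of mevalonate, was at 198, 193, 185 and 157 CPM in NR and 152, 113, 124 and 104 CPM in DR. The groups did not overlap, and the gap between NR GR-KO female and DR GR-Con male was small (log2 fold change -0.57 ± 0.13, edgeR adjusted p = 0.000945, quasi-likelihood adjusted p = 0.0294). Lss, the cyclase that forms lanosterol, was at 63.5, 78.2, 65.5 and 69.5 CPM in NR and 49.3, 56.8, 51.3 and 38.5 CPM in DR (-0.50 ± 0.13, adjusted p = 0.00487). Cyp51, which demethylates lanosterol, was at 145 to 176 CPM in NR and 108 to 138 CPM in DR (-0.39 ± 0.11, adjusted p = 0.0144). Nsdhl, which acts in a later demethylation step, was at 81.5 to 92.7 CPM in NR and 57.8 to 79.3 CPM in DR (-0.38 ± 0.10, adjusted p = 0.00870). All 4 of these genes also passed the quasi-likelihood test and none overlapped between NR and DR. Idi1 (-0.45) and Scd1 (-1.02, at 4.96 CPM or less) were called by the likelihood ratio test and did not pass the quasi-likelihood test.

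The lipid genes had mostly negative values in both ranges of the score. In high-scoring nuclei 7 of 28 tested genes were called lower, all 28 were negative and the median was -0.42, against 0.687% called lower and a median of 0.00 over all genes tested in this range. Hmgcs1 was there at 173 ± 9.76 CPM in NR and 92.5 ± 22.8 CPM in DR (SD, n = 4), and its log2 fold change in this range was -0.93 ± 0.17 (adjusted p = 7.32e-05, quasi-likelihood adjusted p = 0.0456). Fdps, which makes farnesyl diphosphate, Idi1, Nsdhl, Lss, Cyp51 and Fdft1, which makes squalene, fell by 0.89, 0.82, 0.80, 0.79, 0.73 and 0.59, and none of these 6 passed the quasi-likelihood test in this range. In low-scoring nuclei 28 of 30 genes were negative and the median was -0.19, but 0 of 30 were called, and Hmgcs1 stood at -0.41 ± 0.14 (adjusted p = 0.163). The difference between the 2 ranges was not tested. In OPCs Hmgcs1 was at 24.6 CPM and its log2 fold change was -0.69 ± 0.24 (adjusted p = 0.105), and the difference between oligodendrocytes and OPCs did not pass (adjusted p = 0.933).

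**Figure D4:**
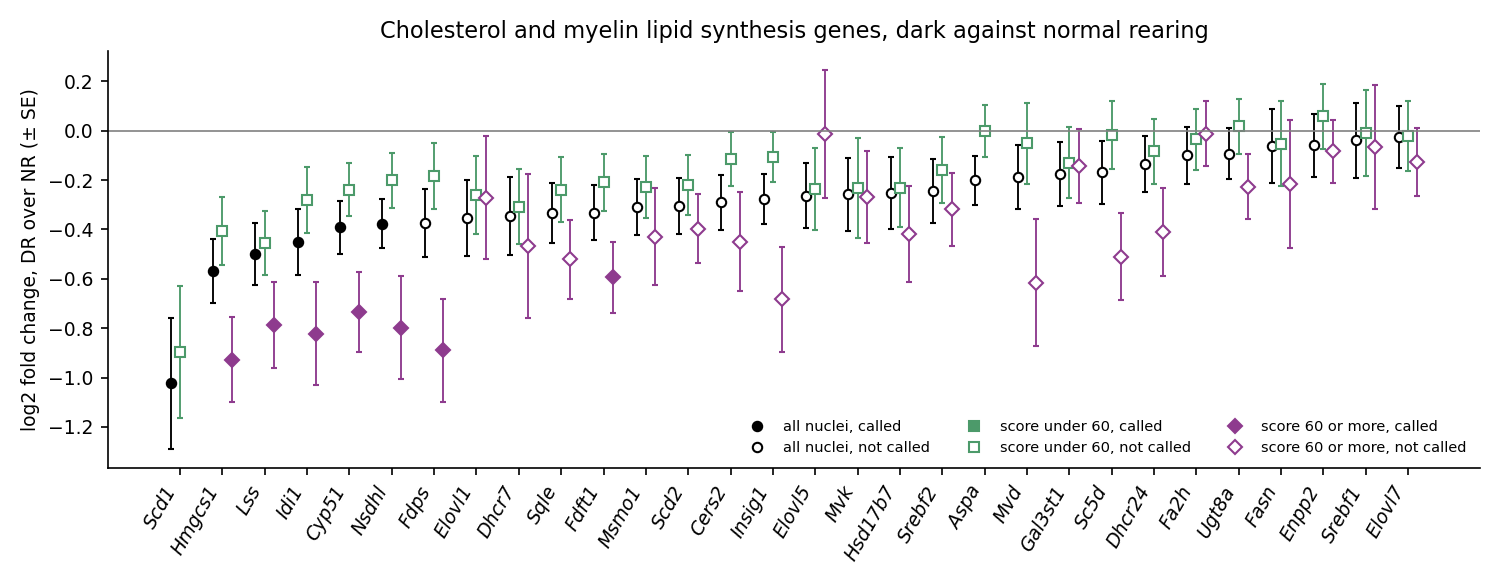
log2 fold change of DR over NR (± SE) for 30 genes of cholesterol and myelin lipid synthesis over all oligodendrocyte nuclei (circles), nuclei with a score under 60 (squares) and nuclei with a score of 60 or more (diamonds). Filled symbols passed an adjusted p of 0.05 and open ones did not. All 30 values over all nuclei are below 0, with 6 called, and 7 genes were called in high-scoring nuclei and 0 in low-scoring nuclei.

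The promoters of 4 sterol genes that passed both tests are shown because sterol genes are known to be controlled by SREBP factors, which bind sterol regulatory elements together with NF-Y at CCAAT boxes. The sequences are from RefSeq (GRCm38.p6), from 250 bases before to 50 bases after the annotated start, and are given 5′ to 3′ on the strand of the gene. Capitals mark CCAAT on either strand (ATTGG on the opposite strand) and TCACNCCAC, the sterol regulatory element searched on both strands.
Hmgcs1 promoter, chr13:119690101-119690400, plus strand: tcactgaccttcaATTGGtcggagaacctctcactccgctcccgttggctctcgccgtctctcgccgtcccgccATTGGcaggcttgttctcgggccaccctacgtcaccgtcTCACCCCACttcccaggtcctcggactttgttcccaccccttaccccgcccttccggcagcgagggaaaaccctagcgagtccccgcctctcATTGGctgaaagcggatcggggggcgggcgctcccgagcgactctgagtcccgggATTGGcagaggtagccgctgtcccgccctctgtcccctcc
Lss promoter, chr10:76531355-76531654, plus strand: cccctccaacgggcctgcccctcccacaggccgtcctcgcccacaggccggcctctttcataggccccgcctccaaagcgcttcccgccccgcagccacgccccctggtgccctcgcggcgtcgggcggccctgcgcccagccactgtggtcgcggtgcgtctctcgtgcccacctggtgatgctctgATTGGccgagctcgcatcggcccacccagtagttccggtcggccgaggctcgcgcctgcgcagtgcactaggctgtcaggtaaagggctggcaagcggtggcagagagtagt
Cyp51 promoter, chr5:4104648-4104947, minus strand: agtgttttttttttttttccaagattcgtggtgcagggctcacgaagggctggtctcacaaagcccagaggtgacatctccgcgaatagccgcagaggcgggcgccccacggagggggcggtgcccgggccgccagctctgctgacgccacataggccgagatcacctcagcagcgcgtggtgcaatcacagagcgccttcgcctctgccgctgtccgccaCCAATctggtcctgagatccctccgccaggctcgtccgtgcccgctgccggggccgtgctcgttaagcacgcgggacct
Nsdhl promoter, chrX:72918271-72918570, plus strand: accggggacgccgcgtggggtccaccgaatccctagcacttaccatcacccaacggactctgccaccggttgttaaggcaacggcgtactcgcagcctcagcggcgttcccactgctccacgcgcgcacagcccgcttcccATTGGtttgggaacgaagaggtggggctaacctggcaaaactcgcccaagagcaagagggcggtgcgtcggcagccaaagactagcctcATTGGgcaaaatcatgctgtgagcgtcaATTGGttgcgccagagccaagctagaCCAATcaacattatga

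Hmgcs1 and Nsdhl held 4 CCAAT boxes each, and Lss and Cyp51 held 1 each. The element TCACNCCAC was found only in Hmgcs1 among these 4 promoters, from -137 to -129 relative to the start. CCAAT occurred in 37.4% of 32851 mouse promoters of the same length and TCACNCCAC in 1.24%. Of the 30 lipid genes 22 had an entry, of which 19 held CCAAT and 1 held TCACNCCAC. Such matches describe these letters in these windows and do not show binding.

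The other lists had between 0 and 3 calls each, beside 1.48% lower and 2.44% higher over all genes. Of 20 genes of growth factor, neurotrophin and adenosine signalling, the neuregulin receptor Erbb3 (-0.48 ± 0.14) and the adenosine receptor Adora1 (-0.50 ± 0.16) were called lower, and the ligand Nrg1 (0.75 ± 0.23), which is enriched in neurons, was called higher. Erbb3 was at 72.4 to 100 CPM in NR and 53.4 to 67.4 CPM in DR, and it was at 95.7 CPM in low-scoring against 11.4 CPM in high-scoring nuclei. Of 22 glucocorticoid response genes the metallothionein Mt1 (-0.78 ± 0.19) and Tsc22d4 (-0.38 ± 0.11) were called lower and 0 higher, with a median of -0.32. Of 18 genes of axon contact and the paranode Kirrel3 was called higher, and of 15 genes of gap junctions, channels and transporters Slc1a1. Of 15 genes of axonal metabolic support, Fth1, the heavy chain of ferritin, was called lower (-0.46 ± 0.15). Of 13 immediate early genes Egr1 was called lower, and of 18 clock genes Rora, which is enriched in neurons, was called higher (0.56 ± 0.15). Of 9 heat shock and unfolded protein response genes 0 were called in either direction by the likelihood ratio test or the quasi-likelihood test.

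Within GR-KO mice 514 of 13572 genes passed for rearing, 225 of them higher and 289 lower in DR (3.79%, 1.66% and 2.13% of the genes tested), and within GR-Con mice 81 of 13165, 73 higher and 8 lower (0.615%, 0.555% and 0.0608%). The 2 counts do not show that rearing acted differently by genotype, and both changed greatly when 1 library was left out. Leaving out 1 of 4 libraries left 1 library on one side, which was then assumed to vary like the 2 on the other. In GR-Con the count was 1022 without DR GR-Con male, 145 without DR GR-Con female, 7 without NR GR-Con male and 2 without NR GR-Con female. In GR-KO it was 983 without NR GR-KO female, 114 without DR GR-KO male and 96 without DR GR-KO female, and 814 with a term for sex. The quasi-likelihood test called 82 genes (0.604%) in GR-KO and 0 in GR-Con, where 865 had an unadjusted likelihood ratio p under 0.05 and DESeq2 called 70. Eps8 rose in both (1.61 ± 0.26 in GR-Con and 1.23 ± 0.20 in GR-KO), as did Nav2 (0.98 ± 0.20 and 0.97 ± 0.18) and Tnr (0.75 ± 0.20 and 0.86 ± 0.24), and Hapln2 fell in both (-1.27 ± 0.34 and -0.71 ± 0.15). The 15 early-stage genes had a median of 0.33 in GR-Con, where 0 were called, and 0.43 in GR-KO, where 5 were called higher. The 30 lipid genes had a median of -0.32 in GR-Con (29 negative, 0 called) and -0.26 in GR-KO (27 negative, 5 called lower).

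Setting GR-KO against GR-Con asks how deletion in astrocytes relates to transcripts of neighbouring oligodendrocytes, and few genes outside the neuron-enriched ones were called. Over both rearings, GR-KO against GR-Con gave 4 called genes of 13341 (0.0300% of the genes tested), and the quasi-likelihood test gave 0, with 693 at an unadjusted likelihood ratio p under 0.05 and 3 called by DESeq2. The count was 86 without DR GR-Con female and 60 without DR GR-Con male. In DR mice 1 gene of 12787 was called (0.00782%), with 369 at an unadjusted p under 0.05, 0 in DESeq2 and 0 by the quasi-likelihood test. Leaving out DR GR-Con male raised this count to 719 and leaving out DR GR-Con female raised it to 56, while it was 0 without either DR GR-KO library. With a term for sex, of which each group held 1 male and 1 female library, 20 genes were called in DR and 9 over both rearings. Neuron-enriched genes were defined on the GR-Con libraries, which are also the baseline of these contrasts. A low level there favours both membership of the class and a rise in GR-KO, so the class is not independent of the calls. In NR mice 211 of 13778 genes passed (1.53%, of which 1.46% higher and 0.0726% lower with the deletion, and 0.225% by the quasi-likelihood test), and 188 of the 201 called higher were enriched in neurons, against 1426 of the 13778 tested. This count was 86 without NR GR-Con male, 117 without NR GR-Con female and 354 without NR GR-KO male.

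Outside neuron-enriched genes, NR mice had 13 calls above and 9 below 0 for GR-KO over GR-Con. With 2 libraries on each side, 36.5% of the genes tested had no overlap. AC149090.1 was at 119 and 87.8 CPM in GR-Con and 221 and 193 CPM in GR-KO (0.96 ± 0.18, adjusted p = 5.54e-05, quasi-likelihood adjusted p = 0.0471). Mgp, an inhibitor of calcification, was at 46.8 and 45.6 CPM in GR-Con and 34.5 and 23.9 CPM in GR-KO (-0.70 ± 0.20, quasi-likelihood adjusted p = 0.255), and Garnl3, a GTPase-activating protein, at 101 and 100 CPM and 73.3 and 64.4 CPM (-0.59 ± 0.15, quasi-likelihood adjusted p = 0.121). In low-scoring nuclei, which held 51.5 of Mgp and 124 of Garnl3 in CPM against 2.09 and 36.0 in high-scoring nuclei, both passed the quasi-likelihood test, with Mgp at -0.67 ± 0.16 (adjusted p = 0.0389) and Garnl3 at -0.74 ± 0.15 (adjusted p = 0.0134). Mgp did not pass in DR (0.04 ± 0.46, adjusted p = 0.999), where it was at 16.8 and 57.9 CPM in the GR-Con libraries, a wider gap than between any NR libraries, and at 39.8 and 36.1 CPM in GR-KO. Garnl3 was at 288 CPM in DR GR-Con female and at 44.7 to 65.9 CPM in the other 3 DR libraries. Markers of other cell types moved with genotype beside these calls. The summed level of 6 astrocyte markers, most of it Slc1a3 and Slc1a2, was 183 to 190 CPM in GR-KO and 151 to 171 CPM in GR-Con of NR mice, and 136 to 167 against 119 to 130 CPM in DR mice. The sum of 6 excitatory neuron markers was 289 to 313 CPM in NR GR-KO and 164 to 228 CPM in NR GR-Con, and 158 to 173 against 129 to 197 CPM in DR. None of the 12 markers was at 0 over all libraries, and their part in the genotype calls was not tested. None of the early-stage, cholesterol or glucocorticoid response genes was called by genotype in NR or in DR by the likelihood ratio test, and the medians of these 3 lists in NR were -0.03, -0.17 and -0.30.

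The neuron-enriched genes numbered 7695, defined on the GR-Con libraries, and 1426 of them could be tested in NR. Their transcripts made up 3.08% and 2.69% of oligodendrocyte UMIs in NR GR-Con, 3.51% and 4.52% in NR GR-KO, 3.30% and 4.17% in DR GR-Con, and 3.62% and 3.73% in DR GR-KO. The genotype difference of 0.534 points was within the spread between libraries (exact permutation p = 0.257), and so was the rearing difference of 0.255 points (exact permutation p = 0.600). Both moved when 1 library was left out. With the genes defined on all 8 libraries, the genotype difference was 0.481 points (exact permutation p = 0.286). With the genes defined on the GR-Con libraries, the genotype difference was 0.822 points without DR GR-Con female (exact permutation p = 0.0286). It was 0.309 points without NR GR-KO female and 0.328 points without NR GR-Con female. The rearing difference was 0.611 points without NR GR-KO female, 0.392 without DR GR-Con male, 0.131 without NR GR-Con male, 0.0986 without DR GR-Con female and 0.00314 without NR GR-Con female. High-scoring nuclei held 4.77% to 8.06% and low-scoring nuclei 2.13% to 3.19%. In low-scoring nuclei the share was 3.19% in NR GR-KO male, 3.10% in NR GR-KO female and 3.13% in DR GR-Con female, the 3 libraries with the deepest nuclei, and 2.13% to 2.57% in the other 5. High-scoring nuclei did not follow this order, with 8.06% in NR GR-KO female and 4.82% in NR GR-KO male.

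The neuron-enriched genes called in NR followed the same libraries. Kcnip4, a modulator of neuronal potassium channels, was at 161 and 154 CPM in NR GR-Con, 379 and 619 CPM in NR GR-KO, 246 and 366 CPM in DR GR-Con, and 213 and 211 CPM in DR GR-KO. NR GR-KO and DR GR-Con female were the high libraries. The median CPM of the 188 genes was 11.1, 10.3, 20.1, 24.8, 11.7, 20.5, 13.1 and 14.6 in the same order. Of the 188, 129 (68.6%) were higher in each of NR GR-KO male, NR GR-KO female and DR GR-Con female than in all of the other 5 libraries, against 21.7% of the 1426 neuron-enriched genes and 4.55% of all genes tested in NR, and the NR part of this holds by the choice of the genes. In DR, where genes were not chosen, 150 (79.8%) were highest in GR-Con female, against 54.3% of the neuron-enriched genes and 35.7% of all genes tested in NR, and the median log2 fold change of GR-KO over GR-Con was -0.20 for the 179 that could be tested. With the summed UMIs thinned to the shallowest library, 14 named genes called by genotype in NR kept sign and call and 2 lost the call. That evens the library totals and not the depth per nucleus. The part of depth per nucleus and of free neuronal RNA in these calls was not tested. In low-scoring nuclei alone 255 of 12793 genes were called by genotype in NR (1.99%, and 0.891% by quasi-likelihood), 232 of them higher (1.81%) and 14 of these not enriched in neurons.

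**Figure D5:**
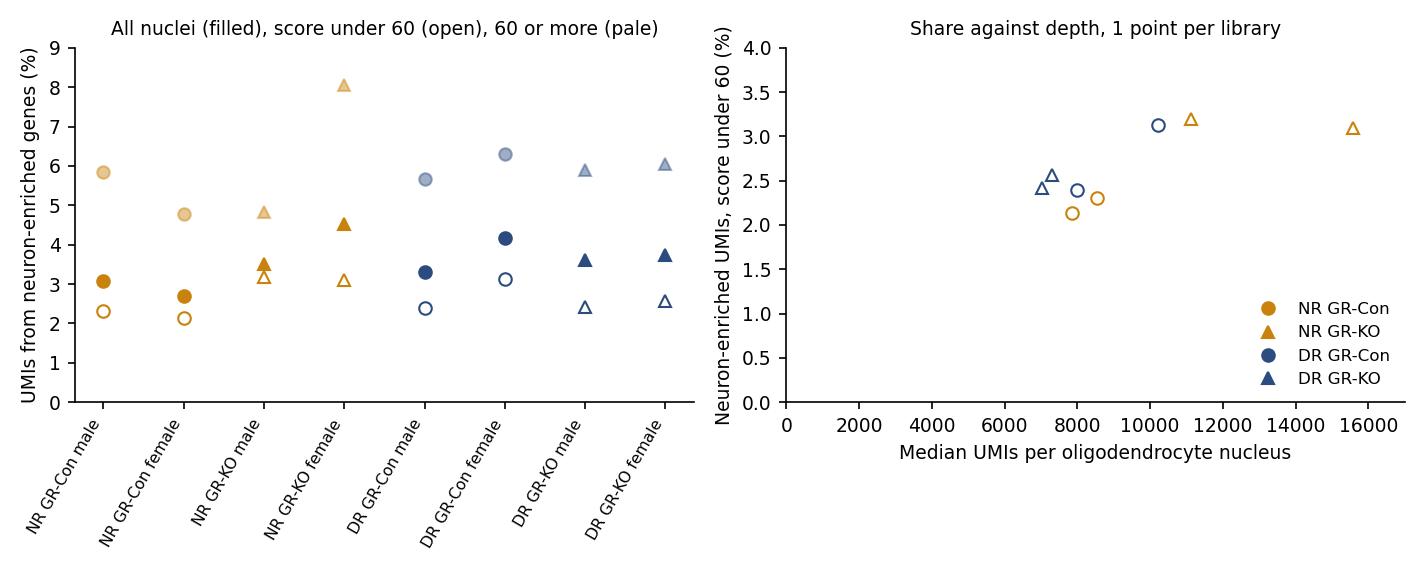
Left, percent of oligodendrocyte UMIs from 7695 neuron-enriched genes in each library, for all nuclei (filled), nuclei with a score under 60 (open) and of 60 or more (pale). Right, the percent in nuclei with a score under 60 against the median UMIs per oligodendrocyte nucleus, 1 point per library. The 3 libraries with medians above 10000 UMIs (10220, 11134 and 15571) lie at 3.10% to 3.19% and the other 5 at 2.13% to 2.57%.

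Among immediate early genes, Fos and Nr4a1 were at 7.98 CPM or less in each library, whereas Homer1 reached 94.98 CPM. Fos was at 0.689 and 0.196 CPM in NR GR-Con, 3.08 and 2.58 CPM in NR GR-KO, 0 and 0.376 CPM in DR GR-Con, and 0.807 and 1.77 CPM in DR GR-KO, so GR-KO was above GR-Con under both rearings. It was called higher in GR-KO in NR (2.47 ± 0.55, adjusted p = 0.00117) and over both rearings (2.59 ± 0.48, adjusted p = 0.000995), and did not pass the quasi-likelihood test in either (adjusted p = 0.182 and 0.873). Nr4a1 was called in NR (1.12 ± 0.29, adjusted p = 0.0126, quasi-likelihood adjusted p = 0.255). Both were among the neuron-enriched genes.

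The interaction of genotype and rearing was called for 62 of 13733 genes (0.451% of the genes tested), 57 of which were neuron-enriched and higher. The quasi-likelihood test called 0 over all nuclei and 7 in low-scoring nuclei. Over all nuclei 601 genes had an unadjusted likelihood ratio p under 0.05, and DESeq2 called 36. The count was 352 without DR GR-Con male, 19 without NR GR-Con male, 36 without NR GR-Con female, 13 without DR GR-KO male and 26 without DR GR-KO female, and it was 98 with a term for sex. Of the named genes Tubb3, a tubulin, was the exception in direction. It was at 39.9 and 41.2 CPM in NR GR-Con, 36.9 and 33.1 in NR GR-KO, 20.97 and 14.85 in DR GR-Con, and 35.5 and 31.4 in DR GR-KO, and so was low only in the DR GR-Con libraries.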

How the data were processed

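Nuclei of mouse V1 were sorted on DRAQ5 (and as GFP-negative, per the methods) and profiled with the 10x 3′ kit, version 4. Per the submitters' processing notes and methods, the authors used Cell Ranger 8.0.1 with mm10 and a custom annotation holding eGFP, Seurat 5.3.0, DoubletFinder for doublets, limits on counts per nucleus (500 and 70000) and Louvain clustering for cell types. The matrix deposited by the authors holds raw UMI counts, without normalization. The deposited cell table gives the percent of mitochondrial UMIs and the library, sex, rearing, vector and cell type of each nucleus, which were used as given. Column sums of the matrix equalled the UMI numbers of the table in all 102330 nuclei.

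Counts of nuclei labelled Oligo were summed per library, and libraries were grouped by the labels. Following the methods of the study, edgeR 4.0.16 (R 4.3.3; filterByExpr, TMM, glmFit, glmLRT, two-sided) was fitted to all genes passing the filter, with Benjamini-Hochberg adjustment and calls at an adjusted p under 0.05. Pairwise comparisons used 4 libraries, pooled comparisons and the interaction 8. The SE was taken as the absolute log2 fold change over the root of the likelihood ratio statistic. Alternatives were the quasi-likelihood test, DESeq2 1.42.0, RLE size factors, no filter, thinned counts, a sex term, removal of neuron-enriched genes, and leaving out each library. Some of the fits, but not all, were tried on simulated data, and the outcome is not reported here. Shares were compared by exact permutation of libraries (two-sided). The precision of a level is limited by 2 libraries per group. Since each library came from another mouse, p-values measure the spread between libraries, with sex as part of it. Mouse, library preparation and depth enter that spread together and cannot be told apart. CPM are UMIs of a gene per 1000000 UMIs of oligodendrocytes, and since 3′ counts were made, they are compared between nuclei and not between genes.

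Members, gene lists and the rule for named genes were chosen with earlier results of these data known. In each comparison the rule named, for either direction, the calls with the greatest fold change, at most 6, at an average log2 CPM of at least 5 with no overlap between groups (overlap was not asked of the interaction), leaving out sex-linked and neuron-enriched genes, up to 3 neuron-enriched genes likewise, called members of 13 lists and the 2 most abundant members of each list. A few list members are not reported here and were left out of list counts. The score, its cut, the fits within its ranges, the OPC comparison and the non-score genes set beside the score were chosen after seeing the data. Gene coordinates are from GENCODE vM21 (GRCm38), where 26006 of 26711 features matched 1 gene, 41 several and 664 none.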

Additional observations from a re-analysis of the deposited data

Results flagged for a closer look

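For 9 named genes the interaction term was called by the likelihood ratio test, that is, the genotype difference (GR-KO over GR-Con, log2) in NR minus that in DR differed from 0. It was -1.15 for Tubb3, 2.43 for Galntl6, 2.38 for Npas2, 2.22 for Frmpd4, 2.13 for Kcnip4, 2.11 for Mgat4c, 2.02 for Hs6st3, 2.00 for Cntnap2 and 1.36 for Nrg3. All but Tubb3 are neuron-enriched genes, and DR GR-Con female was above the other 3 DR libraries for Galntl6 (53.0 CPM against 18.0 to 28.6), Frmpd4 (59.6 against 26.6 to 34.9) and Kcnip4 (366 against 211 to 246). The quasi-likelihood test called 0 genes for this term over all nuclei. It called 7 in low-scoring nuclei, among them Kcnip4 (quasi-likelihood adjusted p = 0.0198) and Galntl6 (quasi-likelihood adjusted p = 0.0420).

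For the named genes that follow, the effect of rearing on summed counts differed between oligodendrocytes and OPCs of the same libraries. They passed the likelihood ratio and the quasi-likelihood test of the difference, with the library as a block. Many had been named for their fold change in oligodendrocytes, and Neu4 and Gpr17 are genes of the score. Neu4 was at 116 to 214 CPM per library in high-scoring nuclei and 0.998 to 4.48 CPM in low-scoring nuclei. Sox6 was at 1330 to 2362 CPM and 22.4 to 59.6 CPM. The part of the share of high-scoring nuclei in these differences was not tested. The difference (oligodendrocytes minus OPCs, log2) was 1.44 for Eps8, 1.20 for C430049B03Rik, 1.12 for Tbc1d8, 1.10 for Shisa9, 1.05 for Ltbp1, 0.90 for Pid1, 0.88 for Nav2 and 0.67 for Dlgap4. It was 0.80 for Fmn1 and 0.77 for Astn1, both enriched in neurons. For genes of maturation and signalling it was 0.85 for Neu4, 0.84 for Sox6, 0.82 for Gpr17, 0.78 for Tnr and 0.63 for Slc1a1. It was 0.95 for the clock gene Per3, -0.92 for Cachd1 and -0.94 for Adora1. In OPCs alone the log2 fold changes of Neu4 (-0.13 ± 0.13), Gpr17 (-0.30 ± 0.12) and Per3 (-0.46 ± 0.15) did not pass. Per3 was not called for rearing over both genotypes in oligodendrocytes either. In low-scoring nuclei Per3 was at 12.5 to 19.7 CPM in NR. There it was at 46.9, 40.0 and 35.2 CPM in DR GR-Con male, DR GR-KO male and DR GR-KO female, but at 6.44 CPM in DR GR-Con female. Sema5b (0.76, adjusted p = 0.00639), Cacng4 (0.82, adjusted p = 0.0101) and Tcf7l2 (0.60, adjusted p = 0.0114) passed the likelihood ratio test of the difference and not the quasi-likelihood test (adjusted p = 0.0543, 0.0754 and 0.0568).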

How the results depend on the processing

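No paired analysis was possible because the library names carry no replicate number. Sex, which the names do give, could be fitted as a term. The number of genes called depended on the test and on single libraries. In the order GR-KO against GR-Con in NR, in DR and over both rearings, DR against NR in GR-Con, in GR-KO and over both genotypes, and the interaction, quasi-likelihood calls numbered 31, 0, 0, 0, 82, 215 and 0. With DESeq2 there were 79 in NR, 0 in DR, 180 for rearing in GR-KO and 36 for the interaction. Fitting all 8 libraries gave 125 in NR and 262 for rearing in GR-KO. The term for sex gave 300 for genotype in NR, 85 for rearing in GR-Con, 626 for rearing over both genotypes, 20 for genotype in DR, 9 for genotype over both rearings, 814 for rearing in GR-KO and 98 for the interaction. Low-scoring nuclei alone gave 14 for rearing in GR-Con, 240 in GR-KO and 80 over both, and high-scoring nuclei 21 for genotype in NR, 5 in DR and 1 over both rearings, 149 for rearing in GR-KO, 138 over both genotypes and 12 for the interaction, on fewer nuclei and UMIs. Leaving out 1 library gave 86 to 354, 0 to 719, 1 to 86, 2 to 1022, 96 to 983, 212 to 650 and 13 to 352 in the same order, with the lone library of a side assumed to vary like the others. The share of high-scoring nuclei by rearing moved from 10.3 to 13.1 points (p 0.0286 to 0.0571, exact permutation) and by genotype from 0.635 to 6.19. The log2 ratio of the oligodendrocyte share lay between 0.113 and 0.346 by genotype and between -0.304 and -0.0708 by rearing, and turned to -0.0187 by genotype with non-neuronal nuclei as the denominator. The neuron-enriched share by genotype lay between 0.309 and 0.822 points, the latter without DR GR-Con female (exact permutation p = 0.0286), and by rearing between 0.00314 and 0.611, turning to -0.0224 as the median over nuclei. Of 2268 values of named genes under alternatives, 1608 kept sign and call, 657 lost the call and 3 turned sign (Itpr2 -0.0828, Nkx2-2 -0.14 and Kirrel3 -0.15, within 1 range of the score, for rearing over both genotypes). Itpr2 and Nkx2-2 are genes of the score that divided the nuclei. The causes were not tested.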
